A study of Mus musculus with 29 samples.

Results

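Translation initiation factors are the proteins that bring a ribosome, an initiator tRNA and an mRNA together at a start codon. Their genes were taken from the count table of mouse hearts by name: every gene whose symbol began with Eif and a digit between 1 and 6, leaving out pseudogene symbols. The rule gave 54 of the 20411 genes in the table, including the kinases that phosphorylate eIF2 (Eif2ak genes) and the proteins that bind eIF4E (Eif4ebp genes), and 52 of the 54 had enough counts to be tested. The hearts came from wild-type BALB/c mice, whose age and sex the labels used here do not state. All mice had received an intravenous adeno-associated virus in which the hepatocyte-specific Tbg promoter drove a transgene, which was green fluorescent protein (GFP) in control vectors and otherwise REV-ERBα, the clock repressor of the nuclear receptor family that Nr1d1 encodes. That promoter targets cells of the liver, at a distance from the heart. Whether the transgene was also expressed in heart was not tested. C26 cells, a mouse colon carcinoma line whose tumours cause cachexia, were placed under the skin 10 days after the vector, and tumour-free mice were given PBS. Hearts with the REV-ERBα vector and a tumour (C26_REV-ERBa) numbered 10, those with the GFP vector and a tumour (C26_GFP) 10, those with the REV-ERBα vector and no tumour (PBS_REV-ERBa) 5, and those with the GFP vector and no tumour (PBS_GFP) 4, each from a mouse with its own number.

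Initiation starts when eIF1, eIF1A and the multi-subunit eIF3 prepare the small ribosomal subunit, and eIF2 delivers the initiator tRNA as a complex with GTP. The guanine nucleotide exchange factor eIF2B recharges eIF2, and stress kinases that phosphorylate the eIF2 alpha subunit block this step, which lowers general protein synthesis. The cap complex of eIF4E, eIF4G and the helicase eIF4A recruits mRNA, and 4E binding proteins hold eIF4E back until the kinase complex mTORC1 phosphorylates them. In heart muscle, protein synthesis follows growth signals, nutrients and workload, and much of its control acts on the phosphorylation of these factors, which RNA counts do not measure.

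Libraries held 3207497 to 16853646 counts, and the 5 libraries above 10000000 counts were 3 of C26_GFP and 2 of PBS_GFP. Lists of cell type markers were summed in each library, in counts-per-million units (CPM). All 10 ventricular cardiomyocyte markers were in the table, and their sum was 51140 to 71694 CPM in C26_REV-ERBa, 46817 to 65806 CPM in C26_GFP, 63135 to 73883 CPM in PBS_REV-ERBa and 64769 to 70893 CPM in PBS_GFP. The 11 macrophage and monocyte markers summed to 427 to 584 CPM in C26_REV-ERBa, 473 to 784 CPM in C26_GFP, 325 to 463 CPM in PBS_REV-ERBa and 403 to 503 CPM in PBS_GFP. The 8 skeletal muscle markers, of which Myh4 was at 0 in every library, summed to 379.8 to 1635 CPM in C26_REV-ERBa, 532 to 1116 CPM in C26_GFP, 700.4 to 3949 CPM in PBS_REV-ERBa and 2363 to 3691 CPM in PBS_GFP. Only 2 of those 8 had enough counts to be tested. Their sum therefore rests on few genes and is not read as an amount of skeletal muscle tissue. The 5 atrial markers ranged between 37.5 and 4156 CPM over all libraries, with high and low libraries in every group. The 9 fibroblast markers averaged 1590 CPM in C26_GFP and 1236 CPM in PBS_GFP, and the 8 smooth muscle and pericyte markers 753 CPM in C26_GFP and 934 CPM in PBS_GFP. The 8 hepatocyte markers summed to 1.75 to 149 CPM, low beside the other lists but uneven between libraries. The part of the lists that moved with the tumour in the results below was not tested. In whole heart tissue, fewer cells of a type and less RNA per cell cannot be told apart.

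The initiation factor genes covered a wide range of levels in heart. Set per gene length, as CPM per kilobase of counted exon over the 29 libraries, the 52 tested genes spanned 218-fold, with a median of 16.2. Eif1, which guards start codon choice, was highest at 335 ± 59.9 (SD, n = 29), followed by Eif5a, the hypusine-containing factor that also serves elongation, at 302 ± 13.6, with ranges of mean and SD that overlapped. Eif4h, a helper of the eIF4A helicase, was next at 148 ± 7.92. The lowest were Eif5a2, the paralogue of Eif5a, at 1.54 ± 0.285, the eIF2 kinase gene Eif2ak4 at 1.84 ± 0.292, and Eif2b3, the gamma subunit of eIF2B, at 3.28 ± 0.905. In the tumour-free groups that order was turned, with Eif5a at 296 and Eif1 at 269.6 in PBS_REV-ERBa, and Eif5a at 295 and Eif1 at 275 in PBS_GFP. In C26_GFP, Eif4ebp1 at 156 stood beside Eif4h at 154. Paralogues differed in how far apart they lay: Eif5a was 196-fold above Eif5a2, while Eif4e at 60.7 and Eif4e3 at 53.8 were close.

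Subunits of 1 complex did not share a level either. Among the 12 tested eIF3 subunits, CPM per kilobase ran between 6.72 for Eif3i and 77.0 for Eif3f, an 11.4-fold range. The eIF2B subunits spanned 4.40-fold and the eIF2 subunits 2.96-fold. Eif4e1b, an eIF4E paralogue best known from oocytes, had no count in any of the 29 libraries. Eif3j1 reached 46 counts in all libraries together and was at 0 in 10 of them, but its counted length in the table is 3 bases, so its value says nothing about its expression.

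**Figure D1:**
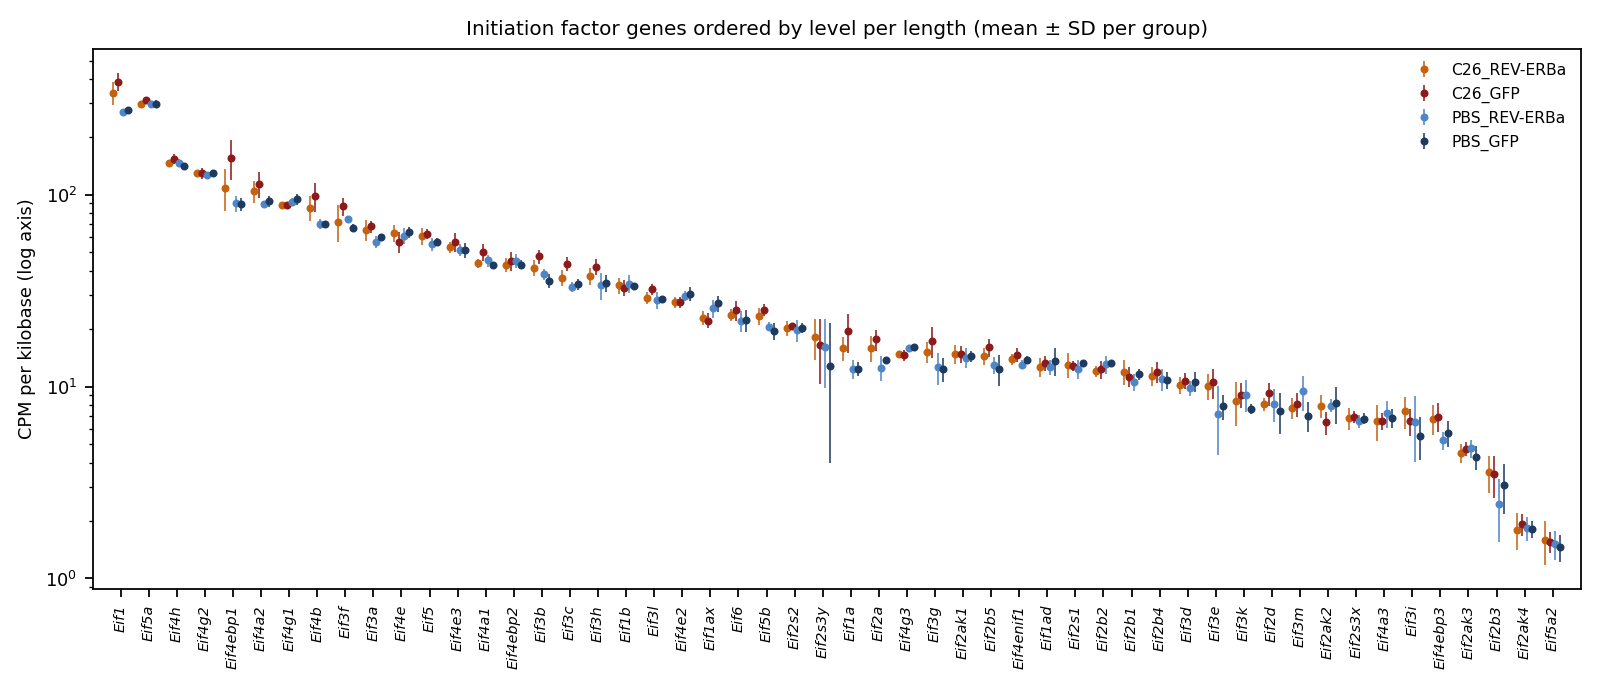
Level of each of the 52 tested initiation factor genes in heart, as mean and SD of CPM per kilobase in each group (log axis), ordered by the mean over all libraries. Eif1 (335) and Eif5a (302) stand at the high end and Eif2ak4 (1.84) and Eif5a2 (1.54) at the low end, and the long error bars of Eif2s3y come from libraries at or near 0.

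With a tumour, initiation factor genes were more often higher than lower in GFP-vector hearts. Of the 52 tested genes, 15 were higher in C26_GFP than in PBS_GFP (28.8%, against 14.2% of all tested genes) and 3 were lower (5.77%, against 14.0% of all tested genes), by edgeR's quasi-likelihood test with a Benjamini-Hochberg adjusted p under 0.05 over all genes. The median log2 fold change was 0.14 over the 52 genes and -2.85e-05 over all 12928 tested genes, and 39 of the 52 were positive. The higher genes were Eif1, Eif1a, Eif2b5, Eif3b, Eif3c, Eif3f, Eif3g, Eif3h, Eif4a1, Eif4a2, Eif4b, Eif4h, Eif4ebp1, Eif5b and Eif2a, and the lower ones Eif1ax, Eif2ak2 and Eif4g3. The changes were small: the called genes lay between -0.32 and 0.81 on the log2 scale. Values of the groups did not overlap for 6 genes (Eif1, Eif1a, Eif3b, Eif3c, Eif3f and Eif5b), where 12.0% of all tested genes showed no overlap, so that count is near the background. Without the 5 libraries above 10000000 counts, 11 genes were higher and none lower, against 7.5% of all tested genes each way. The lower count was 1 in place of 3 without C26_GFP replicate 10, PBS_GFP replicate 1 or PBS_GFP replicate 3. In those 3 settings 12.8%, 10.5% and 11.5% of all tested genes were lower.

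The REV-ERBα vector in tumour-bearing mice went with lower levels of a few of these genes. In C26_REV-ERBa against C26_GFP, 4 of 52 genes were lower (7.69%, against 3.45% of all tested genes), namely Eif3b, Eif3c, Eif4a1 and Eif4ebp1, and 1 was higher (1.92%, against 3.75%), the kinase gene Eif2ak2. In either direction 7.20% of all tested genes passed. The median log2 fold change was -0.07 over the 52 genes and 0.0040 over all tested genes, and 37 of the 52 were negative. No member had groups that did not overlap, against 0.0232% of all tested genes. This comparison shares its 10 C26_GFP libraries with the one before it, so a library that is high by chance there raises the first difference and lowers the second, and values of both are given side by side below. Single libraries moved these counts, and the calls over all tested genes with them. The lower count was 2 without C26_GFP replicate 7, C26_GFP replicate 10 or C26_REV-ERBa replicate 7 (1.42%, 1.21% and 1.13% of all tested genes lower). It was 7 without C26_GFP replicate 6 (6.5% of all tested genes) and 8 without C26_REV-ERBa replicate 9 (6.88%). Leaving out C26_REV-ERBa replicate 9 also gave 2 higher genes (6.9% of all tested genes higher). The higher count was 0 without the libraries named for Eif2ak2 below. With only the 2 groups compared in the fit, Eif3c alone passed, and the calls of Eif4ebp1 (adjusted p = 0.0521), Eif2ak2 (0.0565), Eif4a1 (0.0577) and Eif3b (0.0607) were lost. With limma voom, Eif1, Eif1a, Eif3f, Eif3l and Eif4b also passed (adjusted p of 0.0245 to 0.046). Left out singly, some libraries brought further genes past the threshold. Eif1 passed without C26_GFP replicate 6 or 9 or C26_REV-ERBa replicate 2, 6 or 9 (adjusted p of 0.0251 to 0.0464), and Eif1a without C26_GFP replicate 6 or 9 or C26_REV-ERBa replicate 2 or 9 (adjusted p of 0.0194 to 0.0496). Without C26_REV-ERBa replicate 9, Eif3f (adjusted p = 0.0342) and Eif3l (adjusted p = 0.0246) passed.

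**Figure D2:**
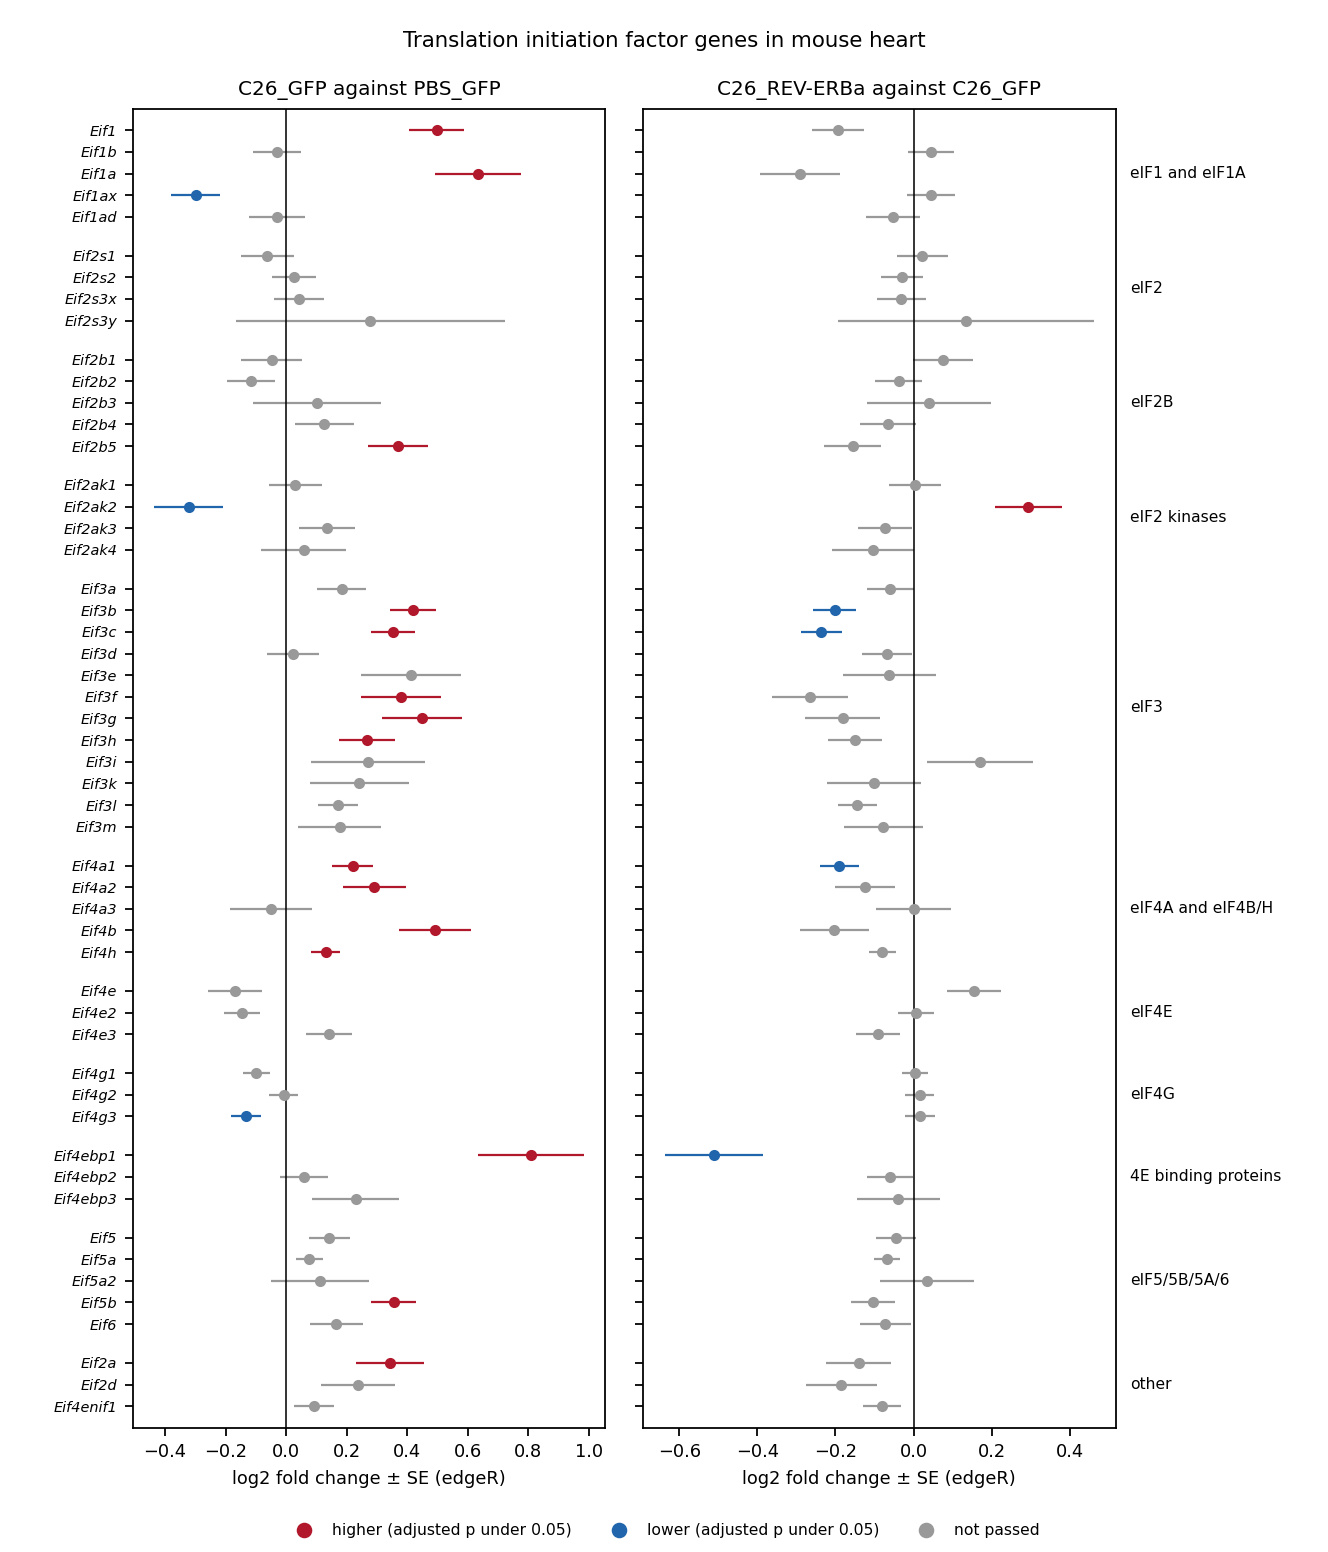
Log2 fold change with its standard error of each tested initiation factor gene, grouped by role, for C26_GFP against PBS_GFP (left) and C26_REV-ERBa against C26_GFP (right). Red marks genes higher and blue genes lower at an adjusted p under 0.05 (15 and 3 on the left, 1 and 4 on the right), all 12 eIF3 subunits lie right of 0 on the left, and both panels share the C26_GFP libraries.

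Of the 5 genes that passed the test between vectors in tumour-bearing mice, 4 had an entry in RefSeq's promoter table (GRCm38.p6, 300 bases around the start site) and Eif4ebp1, which had the widest difference, had none. The 4 promoters are printed here to show the letters before the start sites of genes called in that comparison. Sequences run 5′ to 3′ on the gene's strand, and capitals mark motif matches.
Eif2ak2, chr17:78882523-78882822, minus strand: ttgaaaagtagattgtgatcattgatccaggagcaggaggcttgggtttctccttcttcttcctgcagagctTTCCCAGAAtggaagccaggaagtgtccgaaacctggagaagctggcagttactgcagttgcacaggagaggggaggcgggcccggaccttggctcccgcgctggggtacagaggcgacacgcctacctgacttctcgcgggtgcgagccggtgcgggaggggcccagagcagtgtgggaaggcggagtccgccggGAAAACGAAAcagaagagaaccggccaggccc
Eif3b, chr5:140419055-140419354, plus strand: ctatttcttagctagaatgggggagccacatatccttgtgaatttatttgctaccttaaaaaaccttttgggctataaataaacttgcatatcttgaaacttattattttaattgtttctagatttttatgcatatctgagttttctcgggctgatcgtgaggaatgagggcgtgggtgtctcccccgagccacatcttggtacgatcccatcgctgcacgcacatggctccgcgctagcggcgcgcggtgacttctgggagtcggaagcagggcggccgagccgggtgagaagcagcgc
Eif3c, chr7:126566317-126566616, minus strand: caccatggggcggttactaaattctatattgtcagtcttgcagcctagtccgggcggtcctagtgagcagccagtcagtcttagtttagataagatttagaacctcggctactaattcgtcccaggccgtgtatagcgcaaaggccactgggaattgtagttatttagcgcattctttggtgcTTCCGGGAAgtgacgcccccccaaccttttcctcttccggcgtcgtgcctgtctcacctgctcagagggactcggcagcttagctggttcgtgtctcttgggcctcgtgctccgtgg
Eif4a1, chr11:69672374-69672673, minus strand: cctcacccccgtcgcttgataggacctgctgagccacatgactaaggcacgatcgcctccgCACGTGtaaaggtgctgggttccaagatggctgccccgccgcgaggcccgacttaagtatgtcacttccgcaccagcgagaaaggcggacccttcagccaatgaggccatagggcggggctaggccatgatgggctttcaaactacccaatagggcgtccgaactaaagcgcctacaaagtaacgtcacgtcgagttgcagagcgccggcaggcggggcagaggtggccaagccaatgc
The capitals are TTCCCAGAA and GAAAACGAAA in Eif2ak2, whose first bases lie at -178 and 19 from the start site, TTCCGGGAA at -67 in Eif3c and CACGTG at -189 in Eif4a1, and Eif3b had no match. Motifs searched on both strands were the STAT element (TTCNNNGAA), the E-box (CACGTG), the C/EBP-ATF element (TGATGNAA), the REV-ERB monomer site (TAGGTCA) and, added after the values were seen, the interferon-stimulated response element (GAAA, any 2 bases, GAAA).

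Of the 54 genes, 43 had an entry in the promoter table. The E-box, to which MYC and clock factors can bind, was found in 8 of 43 (18.6%, against 7.24% of 27025 promoters of the same length), among them Eif3a, Eif3f, Eif4a1, Eif4h and Eif4g1, which had 2. The STAT element was in 4 of 43 (9.30%, against 8.47%), the interferon-stimulated response element in 4 (9.30%, against 3.49%), the C/EBP-ATF element in 1 (2.33%, against 4.06%) and the REV-ERB monomer site in none (against 2.64%). Among the 12 promoters of genes higher in C26_GFP, 3 held the E-box and 2 the STAT element. A match describes letters in this window, not a bound site. The compared sets were unlike. The 27025 promoters were the first listed of every gene, whether counted in heart or not, while each member's promoter was the one nearest its counted start. For Eif2ak1 that promoter lay at -54070 bases from the counted start.

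The small subunit factors eIF1 and eIF1A split in direction. Eif1 (NM_011508, chromosome 11, 100319996 to 100322096, plus strand, mm10) had lowest, median and highest values of 340.2, 404 and 495 CPM in C26_REV-ERBa and of 416, 461 and 577 CPM in C26_GFP. It had 314, 331, 321, 339.9 and 327 CPM in PBS_REV-ERBa and 343, 327, 345 and 317 CPM in PBS_GFP. Every tumour-bearing GFP heart was above every tumour-free one, and the tumour-free hearts lay close together. The log2 fold change was 0.50 ± 0.09 (adjusted p = 0.000173) in C26_GFP against PBS_GFP, and -0.19 ± 0.07 (adjusted p = 0.0686) in C26_REV-ERBa against C26_GFP, which did not pass.

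Eif1a and Eif1ax encode near-identical forms of eIF1A, which binds the ribosomal A site during scanning, and reads may be split between them in counting. Eif1a (NM_010120) had lowest, median and highest values of 36.2, 45.8 and 55.0 CPM in C26_REV-ERBa and 38.9, 52.0 and 76.6 CPM in C26_GFP. Its values were 42.0, 32.2, 35.5, 32.4 and 35.6 CPM in PBS_REV-ERBa and 35.0, 38.7, 31.8 and 37.2 CPM in PBS_GFP. The lowest C26_GFP heart was just above the highest PBS_GFP heart, and the C26_GFP values were the most spread. Eif1a differed by 0.63 ± 0.14 (adjusted p = 0.00134) with the tumour in GFP mice and by -0.29 ± 0.10 (adjusted p = 0.0754) between vectors in tumour-bearing mice, where it did not pass. Its X-linked counterpart Eif1ax (NM_025437, chromosome X, 159372195 to 159385699, plus strand) went the other way with the tumour, at 20.5 ± 1.83 CPM in C26_GFP and 25.1 ± 2.4 CPM in PBS_GFP (SD, n = 10 and 4), a log2 fold change of -0.30 ± 0.08 (adjusted p = 0.00624). That call was lost without the 5 libraries above 10000000 counts (-0.28, adjusted p = 0.0984) and after all libraries were thinned to the smallest total (-0.20, adjusted p = 0.229). The ratio of Eif1a to Eif1ax CPM in a library averaged 2.17 ± 0.37 in C26_REV-ERBa, 2.74 ± 0.56 in C26_GFP, 1.51 ± 0.23 in PBS_REV-ERBa and 1.43 ± 0.14 in PBS_GFP (SD), so the autosomal gene gave the larger count in every group. The counted lengths differ, at 2879 bases for Eif1a and 926 for Eif1ax. In CPM per kilobase, Eif1ax was above Eif1a in every group. The means were 22.8 against 15.8 in C26_REV-ERBa, 22.1 against 19.4 in C26_GFP, 25.6 against 12.3 in PBS_REV-ERBa and 27.1 against 12.4 in PBS_GFP. Eif1b and Eif1ad did not pass in any comparison.

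**Figure D3:**
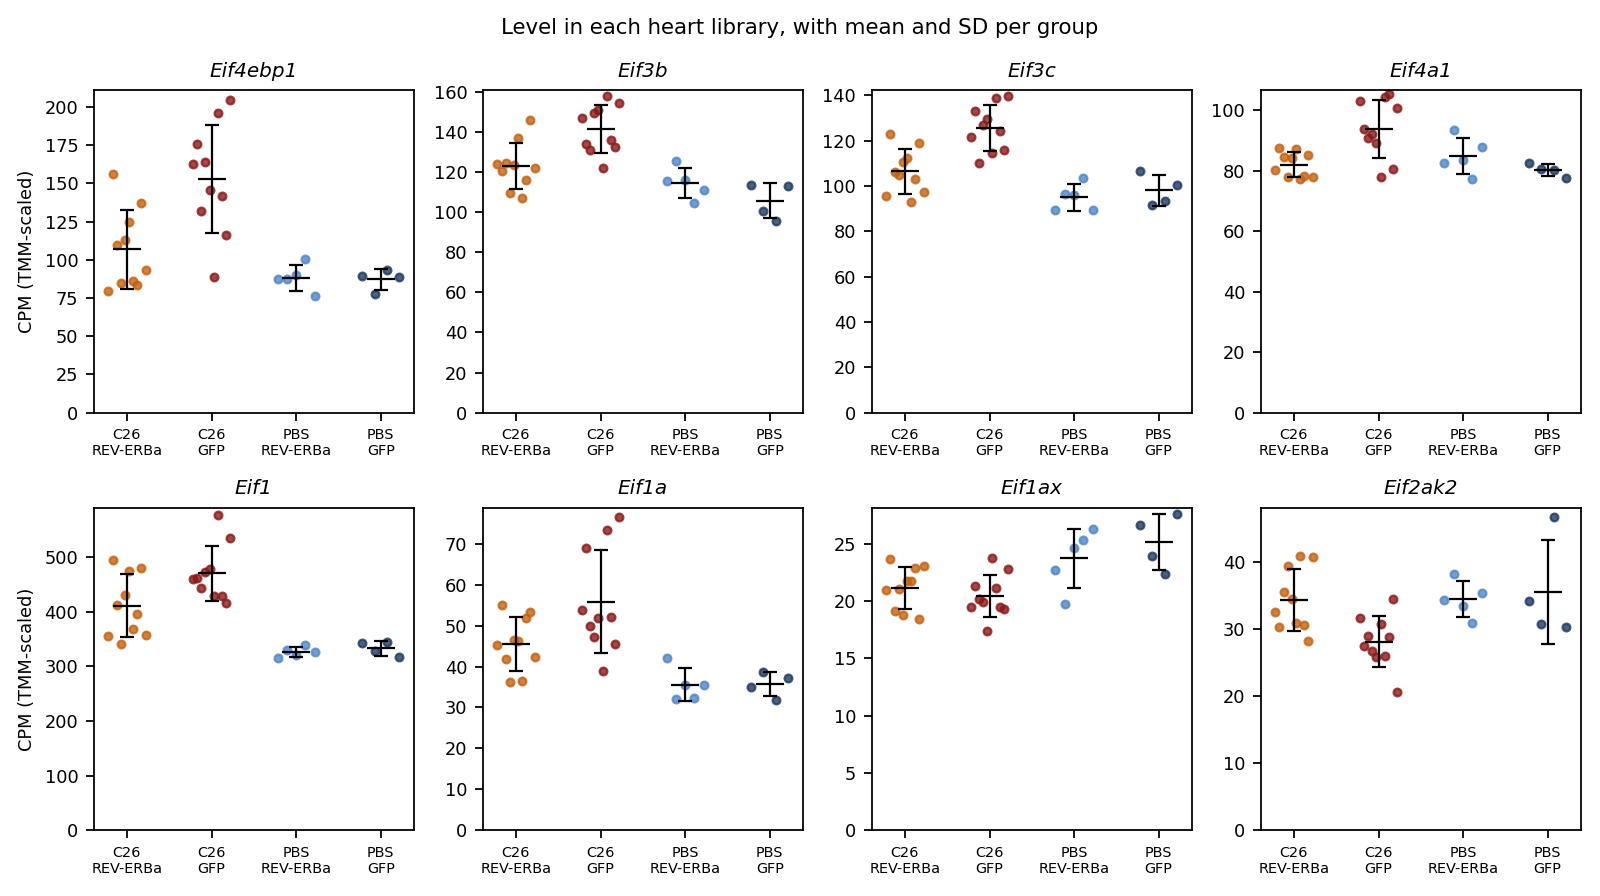
Level (CPM, scaled by TMM factors) of 8 initiation factor genes in each of the 29 heart libraries, with mean and SD per group. Eif1 and Eif3b of all 10 C26_GFP hearts lie above all 4 PBS_GFP hearts, Eif4ebp1 of C26_GFP spreads between 88.9 and 205 CPM, and Eif2ak2 has 1 high PBS_GFP heart at 46.8 CPM.

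No gene of eIF2, the carrier of the initiator tRNA, passed. Of the 4, 0 were called in C26_GFP against PBS_GFP by edgeR (0%, against 28.2% of all tested genes in either direction), with 0 at an unadjusted p under 0.05. With 4 genes, this count cannot be told apart from that share. Eif2s1, the alpha subunit that the stress kinases phosphorylate, had 41.1 ± 5.94 CPM in C26_REV-ERBa, 40.4 ± 2.35 CPM in C26_GFP, 39.1 ± 4.38 CPM in PBS_REV-ERBa and 42.0 ± 0.911 CPM in PBS_GFP (SD). Its log2 fold change was -0.06 ± 0.09 in C26_GFP against PBS_GFP and 0.02 ± 0.07 in C26_REV-ERBa against C26_GFP. Of the eIF2B subunits, 1 of 5 passed in the tumour comparison (20%, against 28.2% of all tested genes in either direction), and it was Eif2b5 (NM_172265, chromosome 16, 20498817 to 20509325, plus strand), the epsilon subunit that carries the exchange activity. Eif2b5 had 41.0 ± 4.53 CPM in C26_GFP and 31.6 ± 5.92 CPM in PBS_GFP (SD, n = 10 and 4), with overlapping values and a log2 fold change of 0.37 ± 0.10 (adjusted p = 0.00627). Without the 5 libraries above 10000000 counts its adjusted p was 0.0698.

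The gamma subunit of eIF2 has an X-linked gene, Eif2s3x, and a Y-linked gene, Eif2s3y (NM_012011, chromosome Y, 1010612 to 1028598, plus strand), and the Y-linked one was at 0 in 2 libraries. Eif2s3y had lowest, median and highest values of 18.5, 35.1 and 39.6 CPM in C26_REV-ERBa and 0, 32.1 and 38.6 CPM in C26_GFP. It had 33.8, 9.56, 39.0, 30.3 and 30.5 CPM in PBS_REV-ERBa and 28.1, 35.3, 0 and 26.7 CPM in PBS_GFP. C26_GFP replicate 8 and PBS_GFP replicate 3 had no Eif2s3y count, where 3 counts, the limit that a count of 0 allows, would have been 0.49984 and 0.865 CPM of their totals. Other Y-linked genes were present in those hearts as in all 29, with Ddx3y, a helicase gene, at 97.9 to 150.0 CPM of the totals, Kdm5d at 14.8 to 24.1 CPM and Uty at 11.4 to 23.1 CPM. Eif2s3x, at 20.3 to 29.3 CPM, had no such gap.

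Set against Ddx3y, the other libraries were not uniform either. Eif2s3y counts per 100 Ddx3y counts were 8.66 in PBS_REV-ERBa replicate 2, 15.8 in C26_REV-ERBa replicate 6 and 16.2 in C26_REV-ERBa replicate 10, and 20.6 to 35.0 in the 24 others above 0. Among 9187 genes with a median above 10 CPM, Eif2s3y was the 1 gene with a library at 0, a scan made after these values were seen. The log2 fold changes of Eif2s3y rest on those libraries, at 0.28 ± 0.44 in C26_GFP against PBS_GFP and 0.13 ± 0.33 in C26_REV-ERBa against C26_GFP, and neither passed.

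**Figure D4:**
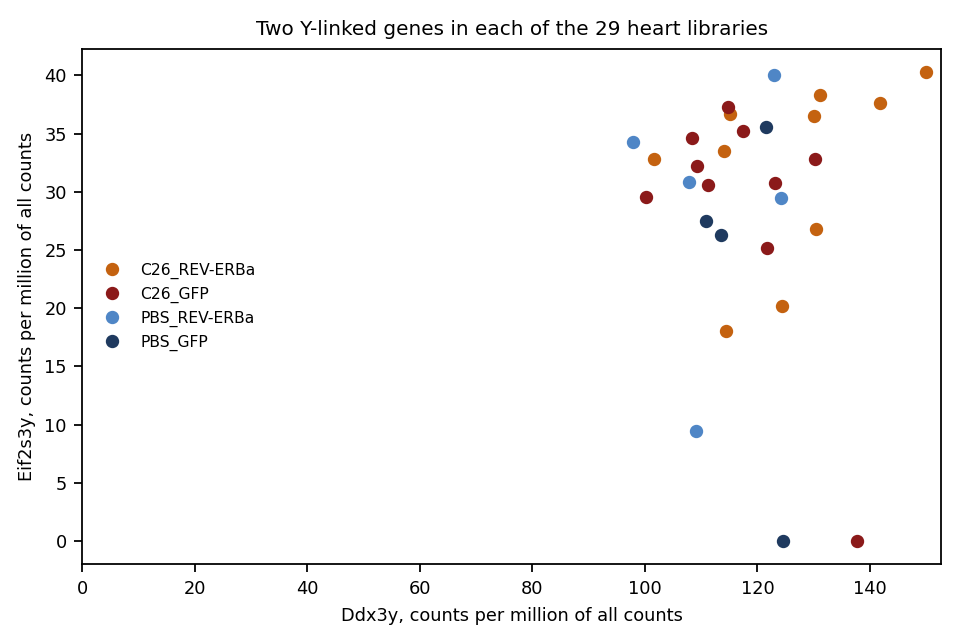
CPM of the Y-linked genes Ddx3y (horizontal axis) and Eif2s3y (vertical axis) in each of the 29 heart libraries, coloured by group. All libraries lie at 97.9 or more for Ddx3y, while 2 libraries, C26_GFP replicate 8 and PBS_GFP replicate 3, lie at 0 for Eif2s3y.

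Of the 4 kinases that phosphorylate eIF2 alpha, 1 passed with the tumour in GFP mice (25%, near the 28.2% of all tested genes) and 3 did not. Eif2ak2 encodes PKR, which double-stranded RNA activates and interferon induces (NM_011163, chromosome 17, 78852550 to 78882572, minus strand), and its promoter is the first printed above. It had lowest, median and highest values of 28.2, 33.5 and 40.8 CPM in C26_REV-ERBa and 20.6, 28.1 and 34.5 CPM in C26_GFP. Its values were 34.4, 38.2, 33.4, 30.8 and 35.4 CPM in PBS_REV-ERBa and 34.2, 30.7, 46.8 and 30.2 CPM in PBS_GFP. C26_GFP hearts were the lowest group, and PBS_GFP replicate 3, which had no Eif2s3y count, stood above all other libraries. Eif2ak2 fell in C26_GFP against PBS_GFP by 0.32 ± 0.11 (adjusted p = 0.032) and rose in C26_REV-ERBa against C26_GFP by 0.29 ± 0.09 (adjusted p = 0.0375). The first call was lost without PBS_GFP replicate 3 (-0.18, adjusted p = 0.26), without PBS_GFP replicate 1 (-0.34, adjusted p = 0.0623) or without C26_GFP replicate 10 (-0.28, adjusted p = 0.0512). The second was lost without any 1 of 10 libraries, namely C26_GFP replicates 2, 4, 5, 7 and 10 and C26_REV-ERBa replicates 1, 3, 4, 7 and 10, with values of 0.25 to 0.30 and adjusted p of 0.0525 to 0.0827.

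The 3 other kinases sense other stresses. Eif2ak1 (HRI), the haem-regulated kinase, had lowest, median and highest values of 32.3, 37.4 and 46.3 CPM in C26_REV-ERBa and 29.4, 38.7 and 43.0 CPM in C26_GFP, with 36.8, 43.2, 32.3, 33.5 and 34.6 CPM in PBS_REV-ERBa and 37.4, 38.2, 37.9 and 33.4 CPM in PBS_GFP. Eif2ak3 (PERK), which senses unfolded protein in the endoplasmic reticulum, had 16.3, 20.1 and 24.0 CPM in C26_REV-ERBa and 18.5, 21.3 and 24.6 CPM in C26_GFP on the same 3 measures, with 22.4, 22.9, 23.7, 19.9 and 18.1 CPM in PBS_REV-ERBa and 18.3, 21.3, 21.8 and 15.7 CPM in PBS_GFP. All groups of both genes overlapped. Eif2ak4 (GCN2), activated by uncharged tRNA when amino acids run short, had 6.12, 9.28 and 11.9 CPM in C26_REV-ERBa and 8.74, 9.60 and 13.3 CPM in C26_GFP (lowest, median, highest), with 10.1, 7.24, 10.7, 10.2 and 9.33 CPM in PBS_REV-ERBa and 10.7, 9.37, 8.89 and 8.72 CPM in PBS_GFP. Log2 fold changes with the tumour in GFP mice were 0.03 ± 0.09 for Eif2ak1, 0.14 ± 0.09 for Eif2ak3 and 0.06 ± 0.14 for Eif2ak4, with adjusted p-values of 0.837, 0.289 and 0.8. After thinning to the smallest total, Eif2ak3 was at 0.35 and passed (adjusted p = 0.0297).

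The eIF3 subunits, which bind the small ribosomal subunit and the mRNA, were the largest role, with 12 tested genes. With the tumour in GFP mice, 5 of the 12 were higher and none lower (41.7%, against 14.2% of all tested genes higher and 14.0% lower), all 12 log2 fold changes were positive (0.02 to 0.45), and their median was 0.27. Eif3b (NM_133916, chromosome 5, 140419305 to 140443358, plus strand), a scaffold subunit, had lowest, median and highest values of 107, 123 and 146 CPM in C26_REV-ERBa and 122, 142 and 158 CPM in C26_GFP. It had 116, 125, 116, 105 and 111 CPM in PBS_REV-ERBa and 114, 101, 95.8 and 113 CPM in PBS_GFP. All C26_GFP hearts exceeded all PBS_GFP hearts, and C26_REV-ERBa hearts lay between C26_GFP and the tumour-free groups with overlap on both sides. Eif3b differed by 0.42 ± 0.07 (adjusted p = 0.000145) in C26_GFP against PBS_GFP and by -0.20 ± 0.06 (adjusted p = 0.0286) in C26_REV-ERBa against C26_GFP. The second call was lost without any 1 of C26_GFP replicates 7 and 10 and C26_REV-ERBa replicates 4, 7 and 10 (adjusted p of 0.0514 to 0.0691).

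Eif3c (NM_146200, chromosome 7, 126546911 to 126566366, minus strand), which contacts eIF1 and eIF5 in the preinitiation complex, followed the same order of groups. Its lowest, median and highest values were 93.0, 105 and 123 CPM in C26_REV-ERBa and 110.2, 126 and 139.8 CPM in C26_GFP. Tumour-free hearts had 89.3, 96.5, 95.9, 104 and 89.6 CPM in PBS_REV-ERBa and 107, 91.8, 93.5 and 100.3 CPM in PBS_GFP. The lowest C26_GFP heart was above the highest PBS_GFP heart, while the vectors overlapped in tumour-bearing mice. The log2 fold change was 0.35 ± 0.07 (adjusted p = 0.000565) in C26_GFP against PBS_GFP and -0.24 ± 0.05 (adjusted p = 0.0131) in C26_REV-ERBa against C26_GFP.

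The other 3 called subunits of eIF3 had overlapping groups or larger adjusted p-values. Eif3f, a subunit that ubiquitin ligase MAFbx targets in wasting muscle, averaged 131 ± 14.0 CPM in C26_GFP and 101 ± 4.69 CPM in PBS_GFP (SD, n = 10 and 4), a log2 fold change of 0.38 ± 0.13 (adjusted p = 0.0302). Eif3g, an RNA-binding subunit, differed by 0.45 ± 0.13 (adjusted p = 0.0118) and Eif3h by 0.27 ± 0.09 (adjusted p = 0.0304). The 7 subunits that did not pass included Eif3e at 0.41 ± 0.17 (adjusted p = 0.06), Eif3l at 0.17 ± 0.07 (adjusted p = 0.0531) and the largest subunit gene, Eif3a, at 0.18 ± 0.08 (adjusted p = 0.0867). Between vectors in tumour-bearing mice, 11 of the 12 log2 fold changes were negative, with a median of -0.12. Of the 12, 2 passed, both lower (16.7%, against 3.45% of all tested genes lower). In that comparison Eif3f was at -0.26 ± 0.10 (adjusted p = 0.0887) and Eif3l at -0.14 ± 0.05 (adjusted p = 0.0678). Eif3f in C26_REV-ERBa was lowest in replicates 2 and 3, at 64.3 and 67.8 CPM, while the 8 other hearts of the group had 107 to 135 CPM.

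Genes of the eIF4A helicase and its cofactors also rose with the tumour in GFP mice. Of the 5 genes of eIF4A, eIF4B and eIF4H, 4 were higher in C26_GFP than in PBS_GFP (80%, against 14.2% of all tested genes) and Eif4a3, which belongs to the exon junction complex, did not pass at -0.05 ± 0.14 (adjusted p = 0.829). Eif4a1 (NM_001159375, chromosome 11, 69666936 to 69672423, minus strand), a cytoplasmic helicase that unwinds leaders of mRNAs, had lowest, median and highest values of 77.3, 82.3 and 87.5 CPM in C26_REV-ERBa and 77.9, 92.9 and 105 CPM in C26_GFP. It had 82.6, 93.3, 83.6, 77.2 and 87.7 CPM in PBS_REV-ERBa and 82.4, 80.6, 80.3 and 77.6 CPM in PBS_GFP. The C26_REV-ERBa hearts overlapped both tumour-free groups, and the highest C26_GFP hearts were above every heart of the other groups. The log2 fold change was 0.22 ± 0.07 (adjusted p = 0.0143) in C26_GFP against PBS_GFP and -0.19 ± 0.05 (adjusted p = 0.024) in C26_REV-ERBa against C26_GFP. The second call was lost without C26_GFP replicate 7, C26_GFP replicate 10 or C26_REV-ERBa replicate 7 (adjusted p of 0.0545 to 0.0581) and after thinning to the smallest total (-0.13, adjusted p = 0.165). Reads of Eif4a1 may be shared with processed copies elsewhere in the genome, so its counts are uncertain.

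Eif4b (NM_145625, chromosome 15, 102073773 to 102097173, plus strand), a cofactor that raises helicase activity and is a target of S6 kinase, averaged 329 ± 48.3 CPM in C26_REV-ERBa, 379 ± 64.5 CPM in C26_GFP, 271 ± 16.8 CPM in PBS_REV-ERBa and 269 ± 5.24 CPM in PBS_GFP (SD, n = 10, 10, 5 and 4). Its spread in tumour-bearing hearts was wide, and 1 C26_GFP heart, replicate 6 at 237 CPM, lay below all PBS_GFP hearts. Eif4b differed by 0.49 ± 0.12 (adjusted p = 0.00272) with the tumour in GFP mice and by -0.20 ± 0.09 (adjusted p = 0.15) between vectors in tumour-bearing mice. Without C26_GFP replicate 6 the second value was -0.26 and passed (adjusted p = 0.0172). Eif4a2, the other cytoplasmic helicase gene, had the higher level in these hearts, at 103 CPM per kilobase over all libraries against 46.2 for Eif4a1. It differed by 0.29 ± 0.10 (adjusted p = 0.0345) with the tumour in GFP mice, and Eif4h by 0.13 ± 0.05 (adjusted p = 0.0358).

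No cap-binding or scaffold gene was called higher with the tumour in GFP mice, where 14.2% of all tested genes were. These genes are too few for that count to be told apart from this share. None of the 3 tested eIF4E genes passed with the tumour in GFP mice by edgeR (against 28.2% of all tested genes in either direction), with 1 at an unadjusted p under 0.05. Eif4e, the cap-binding protein, had 182 ± 19.1 CPM in C26_REV-ERBa, 164 ± 19.7 CPM in C26_GFP, 176 ± 17.9 CPM in PBS_REV-ERBa and 184 ± 11.8 CPM in PBS_GFP (SD), with a log2 fold change of -0.17 ± 0.09 (adjusted p = 0.167) in C26_GFP against PBS_GFP. Among the eIF4G scaffolds, all 3 log2 fold changes were below 0, and Eif4g3 fell by 0.13 (SE 0.05, adjusted p = 0.048). The call of Eif4g3 was lost with RLE scaling, with no filter on low counts, with only the 2 groups compared and after thinning. It was also lost without the libraries above 10000000 counts, and without C26_GFP replicate 10, PBS_GFP replicate 1 or PBS_GFP replicate 3. Eif4g1, the main scaffold, was at -0.10 ± 0.04 (adjusted p = 0.1), and Eif4g2, which lacks the eIF4E site, was at -0.01 ± 0.05 (adjusted p = 0.93) with 1001 ± 66.4 CPM in C26_GFP and 1006 ± 17.0 CPM in PBS_GFP.

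Of the 52 initiation factor genes tested, Eif4ebp1 (NM_007918, chromosome 8, 27260327 to 27275656, plus strand), which encodes the eIF4E repressor 4E-BP1, had the widest difference. It had lowest, median and highest values of 79.7, 102 and 156 CPM in C26_REV-ERBa and 88.9, 154 and 205 CPM in C26_GFP. Tumour-free hearts had 87.8, 87.2, 89.8, 100.4 and 76.2 CPM in PBS_REV-ERBa and 89.5, 77.7, 93.5 and 88.7 CPM in PBS_GFP. In C26_GFP, 9 of 10 hearts were above every PBS_GFP heart and replicate 6 was within the PBS_GFP range, while several C26_REV-ERBa hearts were at tumour-free levels. The log2 fold change was 0.81 ± 0.18 (adjusted p = 0.000976) in C26_GFP against PBS_GFP, a 1.75-fold level, and -0.51 ± 0.13 (adjusted p = 0.0185) in C26_REV-ERBa against C26_GFP. The CPM of Eif4ebp1 over that of its target Eif4e in the same library averaged 0.60 ± 0.18 in C26_REV-ERBa, 0.97 ± 0.33 in C26_GFP, 0.51 ± 0.09 in PBS_REV-ERBa and 0.47 ± 0.02 in PBS_GFP (SD), given as a description of these libraries. This ratio leaves out the counted lengths, 981 bases for Eif4ebp1 and 2882 for Eif4e. In CPM per kilobase, Eif4ebp1 was above Eif4e in every group, with means of 156 and 56.8 in C26_GFP.

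The paralogues of Eif4ebp1, which also bind eIF4E, did not pass in either comparison. Eif4ebp2 had lowest, median and highest values of 65.7, 76.5 and 86.1 CPM in C26_REV-ERBa and 67.4, 81.1 and 92.8 CPM in C26_GFP, with 74.9, 83.4, 91.9, 75.5 and 78.0 CPM in PBS_REV-ERBa and 79.0, 77.9, 70.9 and 80.2 CPM in PBS_GFP. Eif4ebp3 had 5.99, 7.68 and 11.0 CPM in C26_REV-ERBa and 5.61, 8.17 and 10.2 CPM in C26_GFP (lowest, median, highest), with 7.06, 5.51, 5.80, 6.13 and 5.64 CPM in PBS_REV-ERBa and 7.28, 7.57, 6.31 and 5.23 CPM in PBS_GFP. Both genes had overlapping groups throughout. With the tumour in GFP mice the log2 fold change was 0.06 ± 0.08 (adjusted p = 0.618) for Eif4ebp2 and 0.23 ± 0.14 (adjusted p = 0.357) for Eif4ebp3, and between vectors in tumour-bearing mice it was -0.06 ± 0.06 (adjusted p = 0.564) and -0.04 ± 0.11 (adjusted p = 0.908) in that order of genes. A difference between Eif4ebp1 and its paralogues was not tested.

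Among the genes that act at subunit joining and after, 1 of 5 passed with the tumour in GFP mice (20%, against 28.2% of all tested genes). With 5 genes, this count cannot be told apart from that share. Eif5b (NM_198303, chromosome 1, 37998010 to 38055579, plus strand), the GTPase that joins the large subunit, had lowest, median and highest values of 128, 151 and 177 CPM in C26_REV-ERBa and 151, 159.5 and 187 CPM in C26_GFP. Its values were 129.8, 146, 136, 127 and 133 CPM in PBS_REV-ERBa and 145, 126, 127 and 113 CPM in PBS_GFP. The lowest C26_GFP heart was above the highest PBS_GFP heart, and the vectors overlapped. The log2 fold change was 0.36 ± 0.08 (adjusted p = 0.000809) in C26_GFP against PBS_GFP and -0.10 ± 0.06 (adjusted p = 0.248) in C26_REV-ERBa against C26_GFP. Eif5, whose protein makes eIF2 hydrolyse GTP, was at 0.14 ± 0.07, Eif5a at 0.08 ± 0.04, Eif5a2 at 0.11 ± 0.16 and the anti-association factor gene Eif6 at 0.17 ± 0.09 with the tumour in GFP mice, none of which passed. Outside these classes, Eif2a, a separate protein that can deliver initiator tRNA, rose with the tumour by 0.34 ± 0.11 (adjusted p = 0.0212), while Eif2d at 0.24 ± 0.12 and Eif4enif1 at 0.09 ± 0.06 did not pass.

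As a share of all counts in a library, the 54 genes together took 0.568 to 0.652% in C26_REV-ERBa, 0.600 to 0.650% in C26_GFP, 0.549 to 0.567% in PBS_REV-ERBa and 0.553 to 0.569% in PBS_GFP. The means were 0.596% in C26_REV-ERBa, 0.624% in C26_GFP, 0.560% in PBS_REV-ERBa and 0.559% in PBS_GFP. Every C26_GFP heart was above every PBS_GFP heart, and C26_REV-ERBa hearts reached into both the C26_GFP and the tumour-free range. No test is attached to this sum, since highly expressed members such as Eif4g2 and Eif1 weigh most in it.

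**Figure D5:**
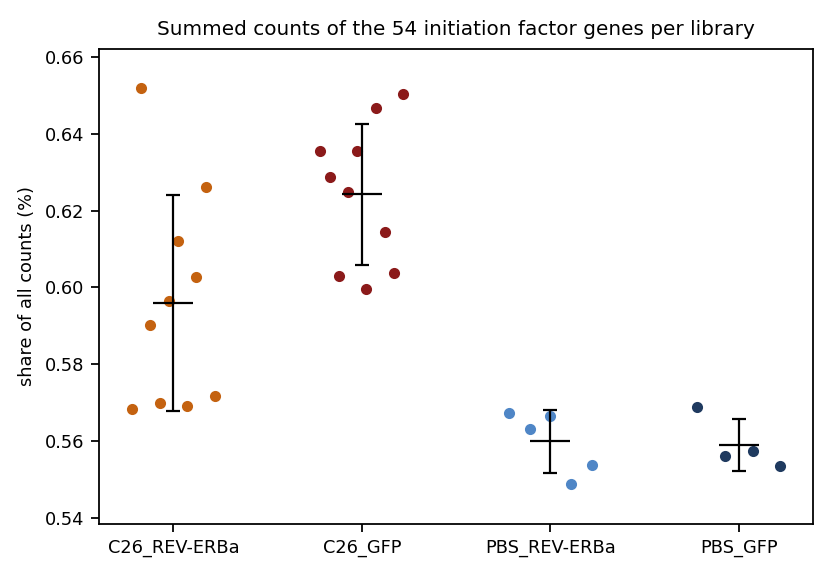
Summed counts of the 54 initiation factor genes as a percentage of all counts in each heart library, with mean and SD per group. The vertical axis does not start at 0. All 10 C26_GFP hearts (0.600 to 0.650%) lie above all 4 PBS_GFP hearts (0.553 to 0.569%), and C26_REV-ERBa hearts spread over 0.568 to 0.652%.

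Without a tumour, the REV-ERBα vector left no called difference in these genes. In PBS_REV-ERBa against PBS_GFP, 0 of 52 passed by edgeR, as did 0% of all tested genes, 0 passed by DESeq2 or by limma voom, and 1 had an unadjusted p under 0.05. That gene was Eif3m, an eIF3 subunit, with 10.8 ± 2.27 CPM in PBS_REV-ERBa and 8.07 ± 1.46 CPM in PBS_GFP (SD, n = 5 and 4) and a log2 fold change of 0.39 ± 0.16 (adjusted p = 1). The next by p were Eif2b3 at -0.37 ± 0.26 (adjusted p = 1) and Eif3b at 0.11 ± 0.08 (adjusted p = 1). Eif3f had groups that did not overlap, with 112, 112, 114, 112 and 113 CPM in PBS_REV-ERBa and 101, 95.0, 99.8 and 106 CPM in PBS_GFP, where 1.63% of all tested genes showed no overlap. Its log2 fold change of 0.16 ± 0.15 (adjusted p = 1) did not pass.

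With the REV-ERBα vector, the tumour went with 2 called genes. In C26_REV-ERBa against PBS_REV-ERBa, 2 of 52 were higher (3.85%, against 4.05% of all tested genes, so near the background). None was lower, against 3.19% of all tested genes, and 7.23% of all tested genes passed in either direction. At an unadjusted p under 0.05 by edgeR there were 16 of the 52, and no share of all tested genes is given at that threshold. Eif1 was higher by 0.33 ± 0.08 (adjusted p = 0.0143), and all 10 C26_REV-ERBa hearts, at 340.2 CPM or more, were above the 5 PBS_REV-ERBa hearts (no overlap, against 1.87% of all tested genes), at 339.9 CPM or less. Eif2a was higher by 0.35 ± 0.11 (adjusted p = 0.0482), with 35.6 ± 5.54 CPM in C26_REV-ERBa and 28.1 ± 4.06 CPM in PBS_REV-ERBa (SD, n = 10 and 5). The call of Eif2a was lost without any 1 of 11 libraries, namely C26_REV-ERBa replicates 2, 3, 5, 6, 8, 9 and 10 and PBS_REV-ERBa replicates 1, 3, 4 and 5 (adjusted p of 0.0529 to 0.14), and without C26_REV-ERBa replicate 4 the count of higher genes was 4. The genes called in GFP mice had smaller values here for Eif3b (0.10 ± 0.07 (adjusted p = 0.376)), Eif3c (0.16 ± 0.07 (adjusted p = 0.131)) and Eif4ebp1 (0.28 ± 0.16 (adjusted p = 0.299)), none of which passed.

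Whether the tumour difference itself differed between vectors was tested as an interaction over all 29 hearts, and no initiation factor gene passed. By edgeR 0 of 52 passed, as did 0% of all tested genes, and DESeq2 and limma voom also called 0 of the 52. In the edgeR test 7 had an unadjusted p under 0.05, a threshold at which no share of all tested genes is given. The smallest p-values belonged to Eif3b at -0.32 ± 0.10 (adjusted p = 0.301), Eif4a1 at -0.27 ± 0.09 (adjusted p = 0.341) and Eif3m at -0.47 ± 0.19 (adjusted p = 0.396). A negative value means that the signed tumour difference was lower with the REV-ERBα vector, and not always smaller in size. For Eif3m the log2 fold change with the tumour was 0.18 with the GFP vector and -0.29 with the REV-ERBα vector, and neither passed. Eif4ebp1 had the most negative value of the 52, -0.53 ± 0.23 (adjusted p = 0.439). A call in GFP mice that is missing with the REV-ERBα vector is therefore not shown to differ between vectors.

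Genes that work beside the initiation factors were counted from 4 pathway lists. Of all tested genes, 14.2% were higher and 14.0% lower in C26_GFP against PBS_GFP. In C26_REV-ERBa against C26_GFP, 3.75% were higher and 3.45% lower. Of 13 tested elongation and termination factor genes, 4 were higher and 2 lower in C26_GFP against PBS_GFP (median 0.13). The 2 lower genes are near the share of all tested genes lower. Eef2, the translocase of elongation, differed by 0.55 ± 0.08 (adjusted p = 2.58e-05) and Eef2k, the kinase that inhibits its product, by 0.73 ± 0.16 (adjusted p = 0.00092), while Gspt1, a release factor gene, was lower at -0.33 ± 0.05 (adjusted p = 3.13e-05). In C26_REV-ERBa against C26_GFP, 1 was higher and 1 lower of the 13 (median -0.08), with Eef2 at -0.28 ± 0.06 (adjusted p = 0.013), Gspt1 at 0.13 ± 0.04 (adjusted p = 0.0474) and Eef1d at -0.16 ± 0.05 (adjusted p = 0.0635), which did not pass. Of 20 cap and poly(A) partners of the cap complex, 6 were higher and 1 lower with the tumour (median 0.06). They included Pabpn1, a nuclear poly(A) binding protein gene, at 0.36 ± 0.06 (adjusted p = 5.47e-05), the eIF4E kinase gene Mknk2 at 0.86 ± 0.16 (adjusted p = 0.000265), and the nuclear cap-binding gene Ncbp2, lower at -0.40 ± 0.09 (adjusted p = 0.00224). Between vectors 2 of the 20 were lower and none higher (median -0.06), Pabpn1 at -0.19 ± 0.04 (adjusted p = 0.014) and Mknk2 at -0.46 ± 0.12 (adjusted p = 0.0214), while Pabpc4 at -0.15 ± 0.06 (adjusted p = 0.106) did not pass.

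Of 19 tested mTORC1 signalling genes, which govern 4E-BP phosphorylation, 6 were higher and 1 lower in C26_GFP against PBS_GFP (median 0.07). Ddit4, whose product restrains mTORC1, differed by 1.91 ± 0.44 (adjusted p = 0.00174), Flcn, which acts in nutrient sensing, by 0.53 ± 0.11 (adjusted p = 0.000524) and the mTORC1 inhibitor gene Tsc2 by 0.28 ± 0.06 (adjusted p = 0.00129). Between vectors in tumour-bearing mice 1 of the 19 was lower and none higher (median -0.06). That gene was Ddit4, at -0.98 ± 0.30 (adjusted p = 0.0422), while Tsc2 at -0.13 ± 0.05 (adjusted p = 0.0736) and Sesn1 at -0.29 ± 0.11 (adjusted p = 0.0844) did not pass. Of 18 tested genes listed for the integrated stress response, the programme downstream of eIF2 phosphorylation, 4 were higher and none lower with the tumour in GFP mice (median 0.19). The list also holds Atf6, whose product acts beside that programme, so these counts are not of the programme alone. The smallest p-values were those of Atf6 (0.56 ± 0.13 (adjusted p = 0.00125)), a sensor of the endoplasmic reticulum, Ppp1r15a (0.74 ± 0.19 (adjusted p = 0.00426)), which recruits the phosphatase that reverses eIF2 phosphorylation, and Psat1 (1.02 ± 0.28 (adjusted p = 0.00653)), an enzyme of serine synthesis. Between vectors 4 of the 18 were lower and none higher (median -0.11), with Ppp1r15a at -0.64 ± 0.14 (adjusted p = 0.0119), Atf4, the transcription factor of this response, at -0.32 ± 0.09 (adjusted p = 0.0298), and Atf6 at -0.33 ± 0.09 (adjusted p = 0.0307). For all 4 lists, the counts with the tumour stand beside 14.2% of all tested genes higher and 14.0% lower. The counts between vectors stand beside 3.75% higher and 3.45% lower.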

How the data were processed

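Total RNA of 29 mouse hearts was sequenced without selection of polyadenylated RNA, per the labels' protocols. Gene counts were deposited by the authors unnormalized in a single table with RefSeq accessions, as whole numbers whose totals differ between libraries. STAR 2.4.2a, DESeq2 1.24.0 and the mm10 build are named per the submitters' processing notes, and no source used here names the counting tool or its strand setting. Counts of near-identical genes (Eif1a and Eif1ax, Eif2s3x and Eif2s3y, genes with processed copies) and of overlapping genes are therefore uncertain. File starts were raised by 1, after which 33 of the 54 genes had the RefSeq start. Of the per-sample columns, 1 matched no sample's labels and was not used.

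The test was the quasi-likelihood F test of edgeR 4.0.16 in R 4.3.3. Its filterByExpr (minimum count 10, minimum total 15) left 12928 of 20411 genes. After TMM scaling, all 29 libraries entered 1 model with a mean per group, with Benjamini-Hochberg adjustment over all tested genes and a threshold of 0.05. CPM use the same factors, and the SE of a fold change was its log2 size over the square root of F. Medians over a list are given without a test. With 3 counts in the smallest library a gene stands at 0.935 CPM, and this floor covers counting error only. The procedure was tested on simulated data, and none of 406 pairs of libraries was a duplicate within sampling noise (chi-square over degrees of freedom at least 2.62).

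The initiation factor genes and the pathway and marker lists were chosen with earlier results of these data known. Named with values were all eIF2 kinase and 4E binding protein genes, the 10 smallest p in each of the first 2 comparisons, called genes (or the 3 smallest p) in the others, the 3 highest and lowest by CPM per kilobase, and the 3 smallest p of each pathway list. Eif3h, Eif4a2, Eif4g3, Eif2s3y and members shown only as not passing or in promoter counts were named after their values were seen. Alternatives tried were RLE and upper quartile scaling, DESeq2 1.42.0, limma 3.58.1 voom with sample weights, no filter, a mean of at least 1 CPM, only the 2 groups compared, a replicate block, an atrial marker covariate, thinning to the smallest total, and leaving out the libraries above 10000000 counts or each library in turn.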

Additional observations from a re-analysis of the deposited data

Results flagged for a closer look

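Across 84 groups of values of 21 initiation factor genes, 3 groups held a library whose distance to the nearest other library was large against the range of its group. Chance alone flags about 1 in 20, so 3 of 84 is no more than chance gives. Eif2s3y had 0 CPM in C26_GFP replicate 8, while the 9 other C26_GFP hearts had 24.6 to 38.6 CPM. That gene entered the scan after its values were seen, so its flag was known beforehand and is not a finding of the scan. Eif2ak4, the kinase gene for amino acid shortage, had 13.3 CPM in the same heart, C26_GFP replicate 8, while the others had 8.74 to 10.9 CPM. Eif3l, an eIF3 subunit gene, had 51.5 CPM in C26_GFP replicate 3, while the others had 59.3 to 66.9 CPM. Without C26_GFP replicate 3, the difference of Eif3l between C26_REV-ERBa and C26_GFP was -0.17 and passed (adjusted p = 0.028), where it was -0.14 (adjusted p = 0.0678) with all libraries, by edgeR.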

How the results depend on the processing

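Of 1092 alternative values of 39 named results, 992 kept their direction and their side of the threshold, 59 lost a call, 23 gained one and 18 changed sign, none of them among called values. In C26_GFP against PBS_GFP the lower genes numbered 1 with only the 2 groups compared and 0 after thinning or without the libraries above 10000000 counts, and leaving out 1 library each gave 10 to 16 higher and 1 to 3 lower. In C26_REV-ERBa against C26_GFP the higher genes numbered 0 with no filter, with only the 2 groups, after thinning or without the deep libraries, and the lower ones 1 with only the 2 groups, which was Eif3c, and 9 with limma voom. Eif4ebp1 was at -0.51 with only the 2 groups (adjusted p = 0.0521) and at -0.50 with the replicate block (adjusted p = 0.0563). Leaving out 1 library each gave 0 to 2 higher and 2 to 8 lower, with 295 to 1778 of all tested genes called. All tested genes called there numbered 931, against 327 with only the 2 groups, 291 with the replicate block and 1772 with limma voom. In C26_REV-ERBa against PBS_REV-ERBa, 1 gene was higher with RLE scaling, with no filter, with only the 2 groups or with the atrial covariate, and 1 to 4 without 1 library each. Sign changes were near 0. In C26_GFP against PBS_GFP they were -0.023 (block) for Eif4ebp2, -0.0032 (voom) for Eif2ak4, and -0.028 (block), -0.0047 (voom) and -0.020 (thinned) for Eif2ak1, which had -0.0064 to 0.070 without 1 library each. In C26_REV-ERBa against C26_GFP they were -0.0043 (DESeq2), -0.0086 (no filter), and -0.018 (thinned) for Eif2ak1. Without 1 library each, Eif2ak1 ranged over -0.035 to 0.028 there and Eif4ebp3 over -0.092 to 0.0020. In PBS_REV-ERBa against PBS_GFP, Eif2b3 was at 0.10 without the deep libraries. The cause of these changes was not tested. With the replicate block 11 genes were higher and 2 lower in C26_GFP against PBS_GFP, 0 and 1 in C26_REV-ERBa against C26_GFP, and 0 in C26_REV-ERBa against PBS_REV-ERBa. Libraries with the same number showed no sign of being paired (correlations of -0.35 to 0.22, with 1 of 23 same-number pairs matching best). Why calls were lost with the block was not tested. Depth limits the genes below about 10 CPM, such as Eif2b3 and Eif5a2, in the libraries with the fewest counts.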

Other observations

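Spread between animals differed among the initiation factor genes. The median coefficient of variation of CPM over the tested genes was 11.1% in C26_REV-ERBa, 10.7% in C26_GFP, 10.2% in PBS_REV-ERBa and 7.35% in PBS_GFP. The scaffold genes were the most even, with Eif4g2 at 2.53% in C26_REV-ERBa, Eif4g1 at 2.49% in C26_GFP and Eif4g2 at 1.69% in PBS_GFP, while Eif3f at 0.883% was the most even in PBS_REV-ERBa. Eif2s3y varied most in C26_GFP (37.4%), in PBS_REV-ERBa (39.2%) and in PBS_GFP (68.7%), and Eif3k, an eIF3 subunit gene of low level, in C26_REV-ERBa (25.8%). The cytoplasmic helicase genes stood in a ratio of Eif4a1 to Eif4a2 CPM of 0.26 ± 0.03 in C26_REV-ERBa, 0.28 ± 0.03 in C26_GFP, 0.32 ± 0.04 in PBS_REV-ERBa and 0.29 ± 0.02 in PBS_GFP (SD), as a description of these libraries.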
